A study of Arabidopsis thaliana with 9 samples.

Results

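In inflorescence stems of Arabidopsis thaliana, 215 of 22746 probe sets (0.945%) were at least 1 log2 unit higher in an HCT-RNAi line than in wild type while the ccr-1 mutant stayed within 0.3 log2 units of wild type. A probe set is the group of short oligonucleotides that reads 1 transcript, or a few related ones, on the Affymetrix ATH1 array. The members were chosen on log2 of the deposited linear intensities, averaged over the 3 arrays of each group, with control probe sets left out. The rule used both contrasts with wild type on all 9 arrays, so the members' own differences are given below as descriptions with no test. Of the 215 members, 206 were named, each for a different gene, and 9 were left unnamed.

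The study set 2 lignin-modified lines against their wild type, in the ecotype Columbia-0. The first is HCT-RNAi, in which RNA interference targets HCT (hydroxycinnamoyl-CoA:shikimate hydroxycinnamoyl transferase). The second is the loss-of-function mutant ccr-1, which affects CCR1 (cinnamoyl-CoA reductase). Each group had 3 arrays of total RNA from stems of 1.5 month old plants grown in long days. The promoter that drives the RNAi construct, the number of plants per sample and the time of day at harvest are not stated in any source used. The labels do not say whether the arrays of 1 group stand for different plants, and the spread between them may be technical.

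HCT and CCR1 both act in the synthesis of monolignols, the building blocks of lignin, and HCT works upstream of the branch at which CCR1 commits intermediates to lignin. Starch is made in plastids by ADP-glucose pyrophosphorylase, starch synthases and branching enzymes. It is taken apart again when dikinases phosphorylate the granule surface, so that amylases and debranching enzymes can reach the chains, and phosphatases remove the phosphate afterwards. The maltose and glucose released are used in the cytosol. Transcripts of many of these enzymes cycle over the day under the circadian clock, an oscillator of transcription factors and associated proteins that are set by light.

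The transcripts of the targeted genes were measured first. HCT (AT5G48930) had a log2 intensity of 9.00, 9.00 and 8.90 on the HCT-RNAi arrays and of 11.97, 11.94 and 11.94 on the ccr-1 arrays, against 12.43, 12.54 and 12.52 on the wild-type arrays. The difference from wild type was -3.53 in HCT-RNAi (limma adjusted p = 1.33e-13) and -0.55 in ccr-1 (limma adjusted p = 2.5e-06). CCR1 (AT1G15950) had 11.12, 11.15 and 11.07 on the HCT-RNAi arrays and 10.01, 10.17 and 10.02 on the ccr-1 arrays, against 11.87, 11.85 and 11.90 on the wild-type arrays. It differed from wild type by -0.76 in HCT-RNAi (limma adjusted p = 2e-07) and by -1.81 in ccr-1 (limma adjusted p = 7.84e-11). Each transcript was lowest in the line that targets it. Array medians lay between 6.92 and 7.04.

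Tissue markers differed between the groups. The summed linear intensity of 9 floral organ markers was 1019 to 1046 on HCT-RNAi arrays and 2994 to 3130 on ccr-1 arrays, against 267 to 283 on wild-type arrays, and 3 of the 9 were called absent on every wild-type array. For 8 seed storage markers the sums were 148 to 151 in HCT-RNAi and 75262 to 78141 in ccr-1, against 148 to 159 in wild type. For 6 xylem and fibre markers they were 6838 to 7712 in HCT-RNAi and 6901 to 7158 in ccr-1, against 21266 to 23112 in wild type. The 3 epidermis markers summed to 11547 to 11948 in HCT-RNAi and 15564 to 16446 in ccr-1, against 5463 to 5912 in wild type. For 3 leaf mesophyll markers the sums were 22405 to 22632 in HCT-RNAi and 29042 to 29400 in ccr-1, against 34368 to 35013 in wild type. As a sign of RNA quality, the 3' control probe sets of actin were brighter than the 5' ones, the log2 difference being 4.36 ± 0.02 in HCT-RNAi and 3.86 ± 0.04 in ccr-1, against 3.98 ± 0.06 in wild type (SD, n = 3 each), and a newer pair of actin control probe sets gave 2.23 ± 0.11 in HCT-RNAi and 2.04 ± 0.10 in ccr-1, against 1.94 ± 0.06 in wild type. The older pair of GAPDH control probe sets gave 1.78 ± 0.12 in HCT-RNAi and 1.61 ± 0.05 in ccr-1, against 1.46 ± 0.06 in wild type. The newer GAPDH pair gave 0.48 ± 0.09 in HCT-RNAi and 0.36 ± 0.11 in ccr-1, against 0.41 ± 0.08 in wild type. The part of tissue make-up and of RNA quality in the differences below was not tested.

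In all, 1152 probe sets (5.06%) were at least 1 higher in HCT-RNAi than in wild type, and the members were 18.7% of these. Of the others, 913 were more than 0.3 higher in ccr-1 and 24 were more than 0.3 lower. In the opposite direction, 163 probe sets were at least 1 lower in HCT-RNAi with ccr-1 within 0.3 of wild type. None (0) of the 10 largest differences of HCT-RNAi from wild type on the array belonged to a member.

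**Figure D1:**
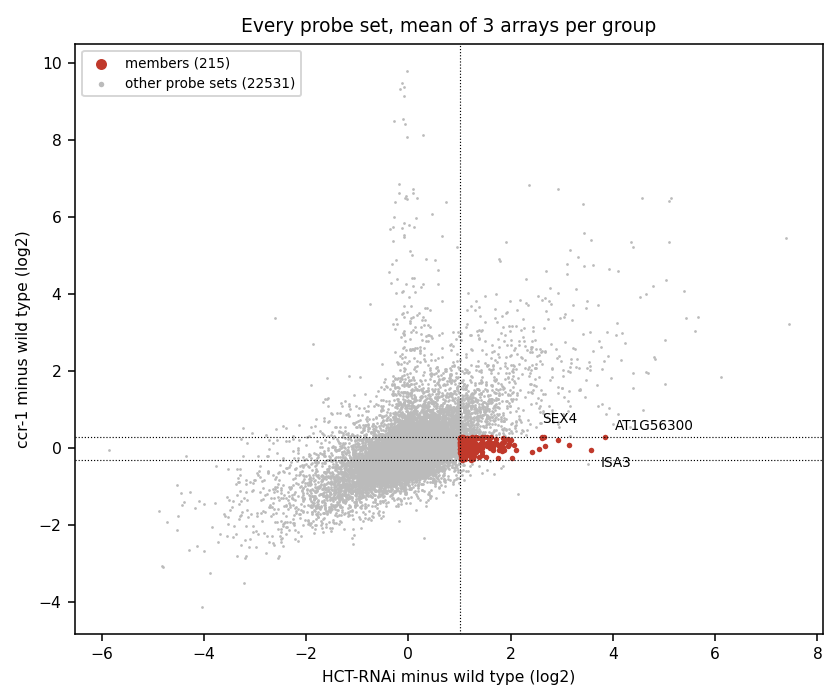
The difference of HCT-RNAi from wild type (horizontal, log2) and of ccr-1 from wild type (vertical, log2) for all 22746 probe sets, each a difference between means of 3 arrays, with the limits of the rule dotted. The 215 members (red) fill the band within 0.3 of wild type in ccr-1, and most lie close to its left edge at 1.

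Among the members the difference of HCT-RNAi from wild type ran from 1.00 to 3.84, with a median of 1.2, beside a median of -0.01 over all probe sets. It was under 1.2 in 106 members, at least 1.5 in 50, at least 2 in 14, at least 2.5 in 9 and at least 3 in 3. The difference of ccr-1 from wild type had a median of 0.08, beside -0.04 over all probe sets, and its sign was positive in 149 members and negative in 66. HCT-RNAi and ccr-1 were each set against the same 3 wild-type arrays. In bulk stems a change in the number of cells of a type and a change in RNA per cell cannot be told apart.

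The lowest HCT-RNAi array lay above all 6 other arrays in 215 of 215 members, and in 24.6% of all probe sets. This count uses the values that chose the members. The median standard deviation between arrays of a group was 0.08 in HCT-RNAi and 0.09 in ccr-1, against 0.07 in wild type. The largest in HCT-RNAi was 0.47, in UBC37, a ubiquitin-conjugating enzyme gene.

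**Figure D2:**
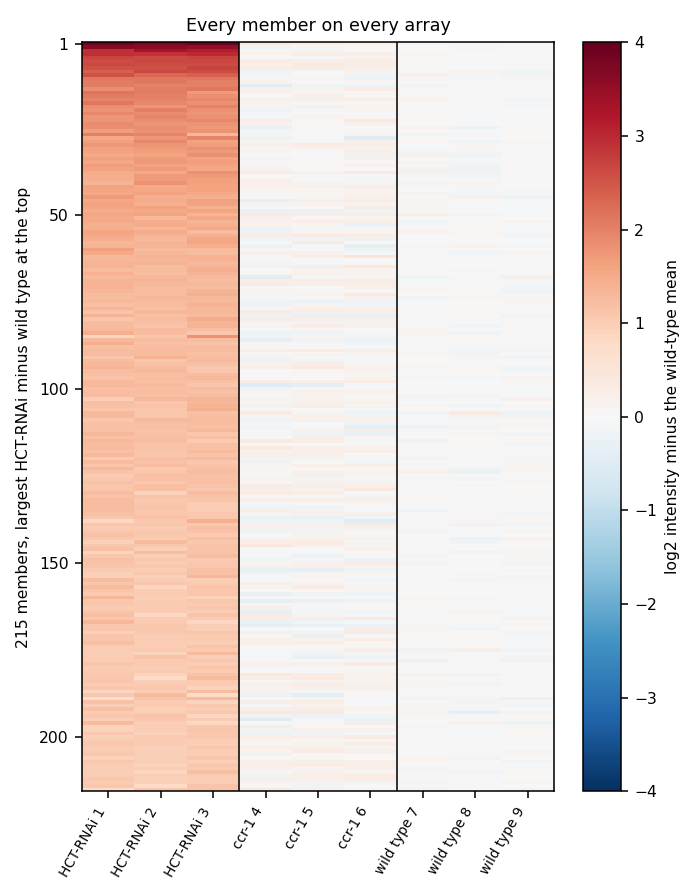
Log2 intensity of each of the 215 members (rows, sorted by the difference of HCT-RNAi from wild type) on each of the 9 arrays (columns), as the deviation from the wild-type mean. The 3 HCT-RNAi columns are red throughout, and the 6 other columns stay pale. The rule sets limits on the group means, not on single arrays.

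To describe what the members encode, 94 of them were placed in 12 groups by the known role of the gene. These groups were drawn up after the values had been seen, and so carry no test. Starch breakdown, with 6 members, had the highest median difference of the 12 groups, 2.65.

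ISA3 (AT4G09020), which debranches starch chains, had a log2 intensity of 10.49, 10.44 and 10.37 on the HCT-RNAi arrays and of 6.68, 6.83 and 6.95 on the ccr-1 arrays, against 6.84, 6.83 and 6.92 on the wild-type arrays. The HCT-RNAi arrays stood far above the rest, and ccr-1 and wild type overlapped. This is a difference from wild type of 3.57 ± 0.07 (SE, n = 3 each), or 11.9-fold, beside -0.04 in ccr-1. SEX4 (AT3G52180), the phosphatase that takes phosphate off the chains, had 11.05, 11.02 and 11.12 in HCT-RNAi and 8.27, 8.38 and 8.38 in ccr-1, against 8.21, 8.13 and 8.07 in wild type. HCT-RNAi exceeded wild type by 2.92 ± 0.06, or 7.59-fold, and ccr-1 exceeded it by 0.21 with all 3 arrays above those of wild type.

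SEX1 (AT1G10760, also GWD1), the dikinase that phosphorylates the granule, had 10.84, 11.04 and 10.85 in HCT-RNAi and 8.90, 8.95 and 9.16 in ccr-1, against 9.05, 9.04 and 9.02 in wild type. HCT-RNAi was 1.88 ± 0.08 above wild type, and the ccr-1 arrays lay on both sides of the wild-type ones. AT4G24450, a second gene of the dikinase family, had 9.22, 9.26 and 9.23 in HCT-RNAi and 7.51, 7.96 and 8.02 in ccr-1, against 7.75, 7.88 and 8.13 in wild type, a difference from wild type of 1.32 ± 0.12 in HCT-RNAi. Its ccr-1 and wild-type arrays spread over a wider range than those of the other starch members.

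The group held 2 enzymes annotated as cytosolic. PHS2 (AT3G46970), the cytosolic glucan phosphorylase, had 11.53, 11.49 and 11.54 in HCT-RNAi and 8.87, 8.87 and 8.97 in ccr-1, against 8.83, 8.90 and 8.79 in wild type. DPE2 (AT2G40840), which transfers glucose from maltose in the cytosol, had 11.79, 11.74 and 11.76 in HCT-RNAi and 9.32, 9.52 and 9.44 in ccr-1, against 9.23, 9.15 and 9.05 in wild type. HCT-RNAi exceeded wild type by 2.68 ± 0.06 for PHS2 (6.41-fold) and by 2.62 ± 0.07 for DPE2 (6.14-fold). All 3 DPE2 arrays of ccr-1 lay above those of wild type, with a mean difference of 0.28.

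The other 7 starch breakdown genes with a named probe set were above wild type in HCT-RNAi in 6 cases, but their ccr-1 values lay outside 0.3. These 6 were called higher by limma's adjusted p under 0.05, beside 32.9% of all probe sets. The plastid enzymes PHS1 and DPE1 differed from wild type by 2.92 and 2.83 in HCT-RNAi and by 0.69 each in ccr-1. The dikinase gene AT5G26570 differed by 2.18 in HCT-RNAi and 0.73 in ccr-1. RCP1, the maltose exporter of the plastid envelope, differed by 1.39 in HCT-RNAi and 1.03 in ccr-1. The amylase genes stood apart: the alpha-amylase AMY3 differed by 0.93 in HCT-RNAi and -0.71 in ccr-1, and CT-BMY (BAM3), a plastid beta-amylase, by 0.25 and -0.92. BMY3, a beta-amylase relative, was lower in both lines, by -2.58 in HCT-RNAi and -0.75 in ccr-1. Most of these genes have a name here only because they are in the authors' table, which was selected for change, so their counts are inflated.

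**Figure D3:**
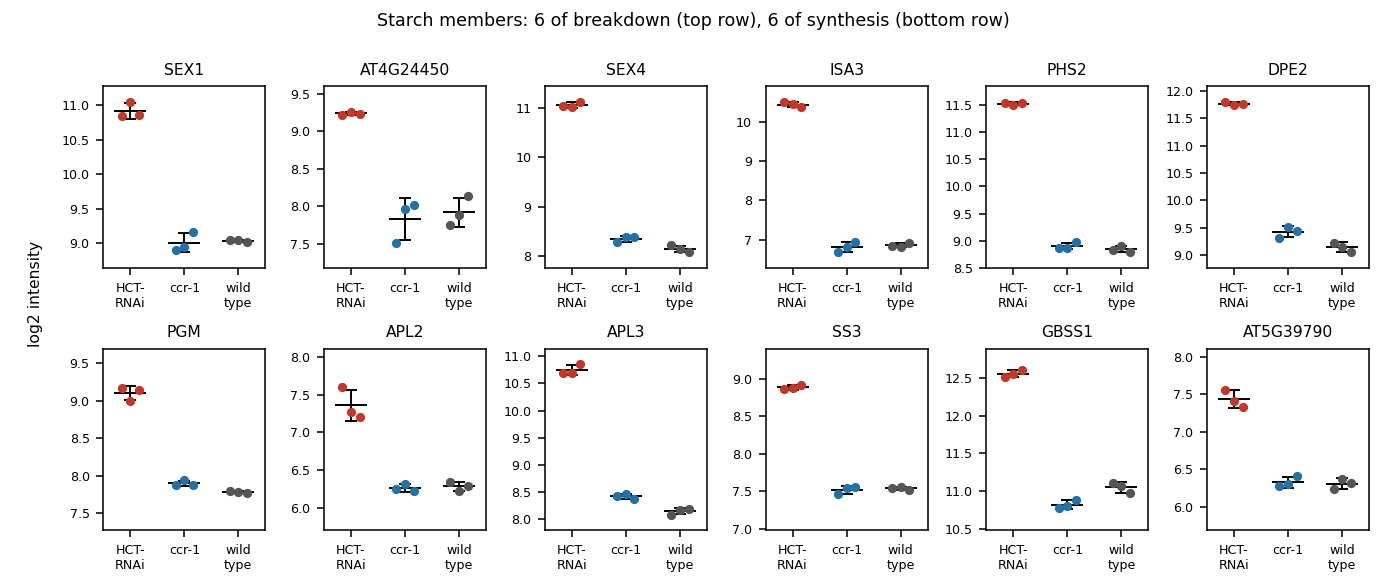
Log2 intensity of the 12 starch members on each array (points; bars, mean ± SD of 3 arrays), with HCT-RNAi left, ccr-1 in the middle and wild type right, and a vertical scale of its own for each gene. In every panel the HCT-RNAi arrays lie above the other 6, by a mean over wild type of 1.07 (APL2) to 3.57 (ISA3).

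Starch synthesis also held 6 members, with a median of 1.34. APL3 (AT4G39210), a large subunit of ADP-glucose pyrophosphorylase, had 10.70, 10.70 and 10.85 in HCT-RNAi and 8.43, 8.46 and 8.36 in ccr-1, against 8.08, 8.16 and 8.19 in wild type. HCT-RNAi was 2.61 ± 0.06 above wild type, or 6.09-fold. APL2, another large subunit, was 1.07 ± 0.09 above wild type, with 7.60, 7.27 and 7.21 in HCT-RNAi and 6.25, 6.32 and 6.22 in ccr-1, against 6.34, 6.22 and 6.29 in wild type. GBSS1 (AT1G32900), which makes amylose, was among the members with the strongest signal, at 12.52, 12.56 and 12.61 in HCT-RNAi and 10.77, 10.80 and 10.88 in ccr-1, against 11.10, 11.07 and 10.97 in wild type. Here the ccr-1 arrays lay below all wild-type arrays, by a mean of -0.23, while HCT-RNAi was 1.51 ± 0.06 above wild type.

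The soluble starch synthase SS3 was 1.35 ± 0.05 above wild type in HCT-RNAi. The plastid phosphoglucomutase PGM, which supplies glucose 1-phosphate, was 1.32 ± 0.06 above it. AT5G39790, a starch-binding plastid protein, was 1.13 ± 0.07 above it. In ccr-1 these 3 members differed from wild type by -0.02, 0.11 and 0.02. Of the other 6 named synthesis genes, APL4 differed from wild type by 4.59 in HCT-RNAi and 0.98 in ccr-1, the branching enzyme SBE2.1 by 3.13 and 1.23, and the isoamylase-type DBE1 by 2.24 and 0.45. The branching enzyme SBE2.2 differed by 0.96 in HCT-RNAi and -0.77 in ccr-1, SS4 by 0.72 and -0.29, and APL1 by -0.04 and -1.16. Within the pyrophosphorylase family the order of the differences in HCT-RNAi was APL4, APL3, APL2 and APL1.

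**Figure D4:**
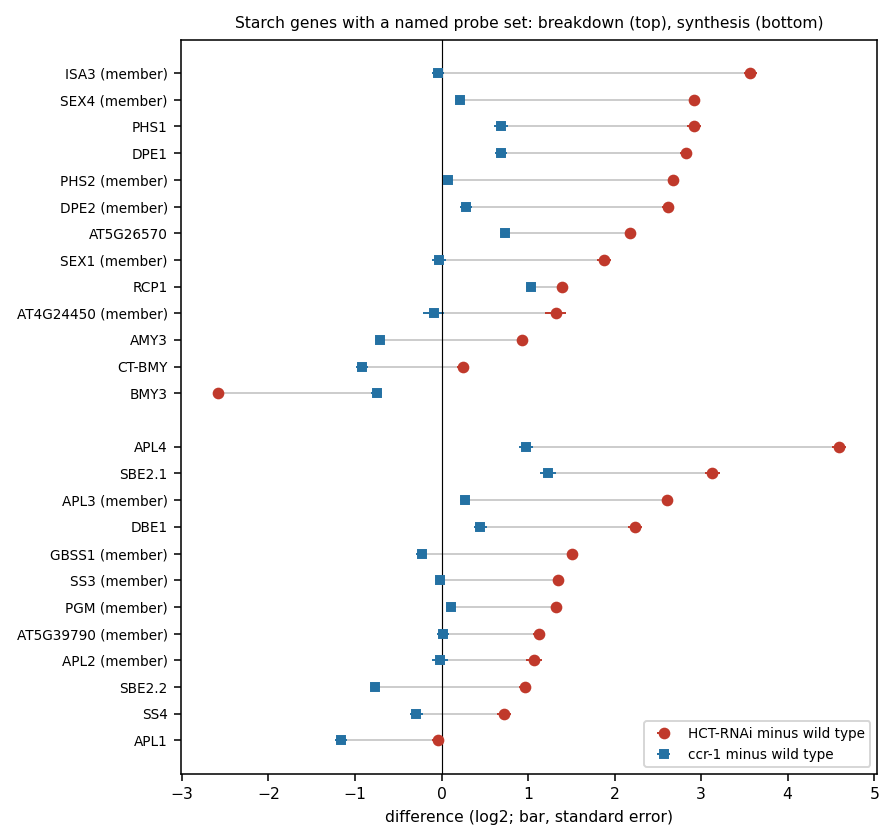
Difference from wild type (log2, bars are standard errors) in HCT-RNAi (red circles) and ccr-1 (blue squares) for 13 named genes of starch breakdown and 12 of synthesis. The HCT-RNAi value lies right of the ccr-1 value for every gene except BMY3, at -2.58 in HCT-RNAi and -0.75 in ccr-1.

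A shorter list of starch and sugar transport genes had 11 genes with a probe set, of which 3 were members (APL3, GBSS1 and SEX1). By limma's adjusted p under 0.05, 10 of the 11 were higher and 1 was lower in HCT-RNAi than in wild type, beside 32.9% and 27.7% of all probe sets. In ccr-1, 6 were higher, 4 lower and 1 did not pass, beside 24.7% and 30.1% of all probe sets. All 11 were in the authors' table, which was selected for change, and the rule fixed the 3 members as higher in HCT-RNAi. These counts are therefore inflated. The list's median difference was 1.88 in HCT-RNAi and 0.27 in ccr-1, beside -0.01 and -0.04 over all probe sets. Outside the members, the 2 largest rises in HCT-RNAi were those of GPT2, a plastid glucose 6-phosphate translocator (7.44), and APL4 (4.59). STP1, a plasma membrane hexose transporter, fell by 3.33. BAM3, named above as CT-BMY, rose by 0.25, a call that was lost once the arrays were centred on their medians.

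Sucrose and trehalose metabolism held 4 members. TPPE, a trehalose 6-phosphate phosphatase, had 7.85, 7.96 and 8.01 in HCT-RNAi and 6.36, 6.19 and 6.53 in ccr-1, against 6.04, 6.07 and 6.18 in wild type. TPS1, which makes the trehalose 6-phosphate that TPPE removes, had 8.70, 8.59 and 8.52 in HCT-RNAi and 7.28, 7.47 and 7.32 in ccr-1, against 7.45, 7.47 and 7.37 in wild type. The synthase and the phosphatase were thus both higher in HCT-RNAi, by 1.18 ± 0.07 for TPS1 and 1.84 ± 0.08 for TPPE. SPS1F, a sucrose phosphate synthase, was 1.22 ± 0.10 above wild type. PPCK1, the kinase that regulates phosphoenolpyruvate carboxylase, was 1.39 ± 0.08 above it, with a ccr-1 difference of -0.22.

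Clock and light genes made up 10 members, with a median of 1.21. GI (AT1G22770), a clock protein that also acts in flowering, had 8.86, 8.78 and 8.74 in HCT-RNAi and 7.87, 7.78 and 7.87 in ccr-1, against 7.56, 7.55 and 7.61 in wild type. All ccr-1 arrays lay above all wild-type arrays, and HCT-RNAi lay above both. PRR5, a clock repressor, had 6.27, 6.08 and 6.15 in HCT-RNAi and 5.29, 5.07 and 4.79 in ccr-1, against 4.86, 5.29 and 4.77 in wild type. Its signal was called present on all 3 HCT-RNAi arrays and on 1 array each of ccr-1 and wild type. HCT-RNAi exceeded wild type by 1.22 ± 0.06 for GI and by 1.2 ± 0.14 for PRR5.

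A probe set that can read more than 1 transcript, and that the authors' deposited table assigns to the clock repressor PRR9, had 9.56, 9.49 and 9.31 in HCT-RNAi and 7.52, 7.70 and 7.57 in ccr-1, against 7.54, 7.42 and 7.51 in wild type. It is counted among the unnamed members, with a difference of 1.96 ± 0.07 in HCT-RNAi. The clock list had 7 genes with a named probe set, of which GI and PRR5 were the members. In HCT-RNAi 6 of the 7 were higher and 1 was lower by limma's adjusted p under 0.05, beside 32.9% and 27.7% of all probe sets. In ccr-1 3 were higher, 2 lower and 2 did not pass, beside 24.7% and 30.1% of all probe sets. With only 7 genes, these ccr-1 counts are descriptions only. The 7 genes were all in the authors' table, selected for change, so the counts are inflated. The rule also fixed GI and PRR5 as higher in HCT-RNAi and held them within 0.3 of wild type in ccr-1. The list's median difference was 1.2 in HCT-RNAi and 0.08 in ccr-1. GRP7 and ELF4 rose by 1.27 and 1.23 in HCT-RNAi, and by 0.47 and 0.46 in ccr-1. RVE1, a MYB-type morning gene, fell by 1.76 in HCT-RNAi and by 0.36 in ccr-1. PRR7 rose by 0.29 in HCT-RNAi, a call that was lost without replicate 1, 7 or 9 and under median centring, and fell by 0.94 in ccr-1. The part of harvest time in these differences was not tested.

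Of the light-related members, AT5G53420, which encodes a protein with the CCT motif found in clock and flowering regulators, had the largest difference. It had 10.21, 10.25 and 10.26 in HCT-RNAi and 7.88, 7.85 and 7.88 in ccr-1, against 7.62, 7.52 and 7.62 in wild type. The 3 groups did not overlap, and HCT-RNAi was 2.65 ± 0.05 above wild type (6.29-fold). LZF1, a B-box protein of light signalling, had 9.41, 9.32 and 8.96 in HCT-RNAi and 7.43, 7.36 and 7.35 in ccr-1, against 7.26, 7.34 and 7.18 in wild type. PORB, which reduces protochlorophyllide in chlorophyll synthesis, had 10.88, 10.91 and 10.87 in HCT-RNAi and 9.13, 9.18 and 9.17 in ccr-1, against 9.07, 8.90 and 8.83 in wild type. HCT-RNAi was above wild type by 1.98 ± 0.10 for LZF1 and by 1.95 ± 0.06 for PORB.

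The remaining light members differed less. The B-box genes AT2G47890 and BBX18 were 1.58 ± 0.06 and 1.05 ± 0.07 above wild type in HCT-RNAi. The blue light receptor PHOT2 was 1.11 ± 0.06 above it, the red light receptor PHYE 1.04 ± 0.06, and CIB5, a bHLH protein, 1.03 ± 0.12. PHYE had nearly the same level in ccr-1 (8.46 ± 0.04) as in wild type (8.50 ± 0.02, SD, n = 3 each).

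The member with the largest difference was AT1G56300, which encodes a J-domain protein, a partner of the Hsp70 chaperones. It had 8.97, 8.84 and 9.00 in HCT-RNAi and 5.48, 5.39 and 5.26 in ccr-1, against 5.13, 4.99 and 5.17 in wild type, so that HCT-RNAi exceeded wild type by 3.84 ± 0.07 (14.4-fold) and ccr-1 by 0.28. A second J-domain gene, AT5G23240, had 6.31, 6.24 and 5.64 in HCT-RNAi and 4.45, 4.21 and 4.42 in ccr-1, against 4.14, 4.39 and 4.37 in wild type. The HCT-RNAi array at 5.64 was the lowest of that group and still above the other 6 arrays, and the mean difference was 1.76 ± 0.15. The remaining J-domain gene, AT3G14200, was 1.06 ± 0.08 above wild type in HCT-RNAi and differed by -0.18 in ccr-1.

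**Figure D5:**
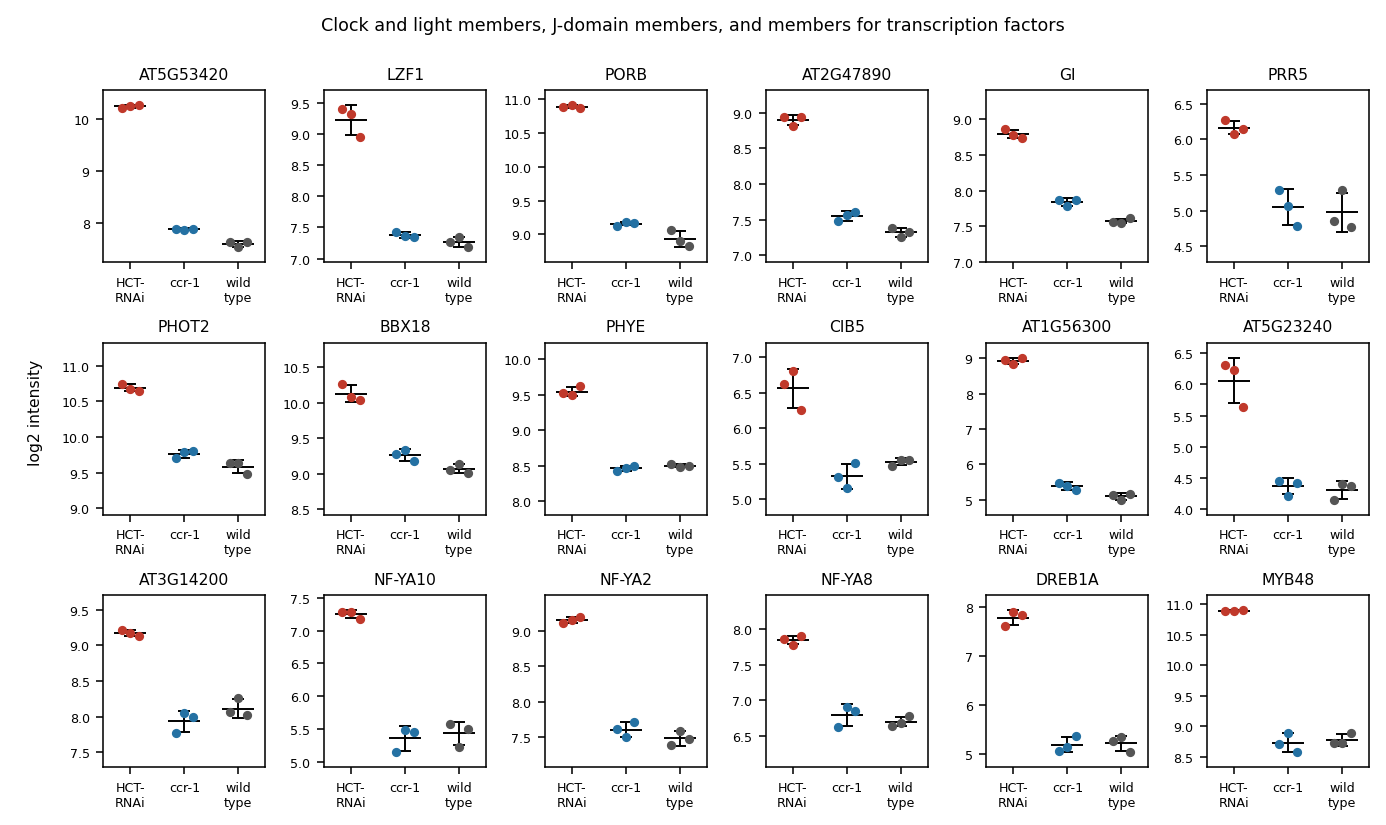
Log2 intensity on each array (points; bars, mean ± SD of 3 arrays) of 10 clock and light members, 3 J-domain members and 5 members for transcription factors, with HCT-RNAi left, ccr-1 in the middle and wild type right, and a vertical scale of its own for each gene. The mean over wild type in HCT-RNAi is between 1.03 (CIB5) and 3.84 (AT1G56300).

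NF-YA proteins are the DNA-contacting subunits of a trimeric factor that binds CCAAT boxes. NF-YA10 had 7.29, 7.28 and 7.18 in HCT-RNAi and 5.14, 5.48 and 5.45 in ccr-1, against 5.57, 5.23 and 5.50 in wild type. NF-YA2 had 9.11, 9.15 and 9.19 in HCT-RNAi and 7.62, 7.50 and 7.71 in ccr-1, against 7.39, 7.59 and 7.48 in wild type. With NF-YA8 these members were above wild type in HCT-RNAi by 1.82 ± 0.10, 1.67 ± 0.07 and 1.15 ± 0.08, and ccr-1 overlapped wild type for all 3. The 3 other family members with a named probe set were higher in both lines: NF-YA3 differed by 1.49 in HCT-RNAi and 1.19 in ccr-1, NF-YA5 by 1.53 and 0.78, and NF-YA7 by 1.67 and 0.47. All 6 were at least 1 above wild type in HCT-RNAi, beside 5.06% of all probe sets. For the 3 members the rule fixed this, and it also held their ccr-1 values within 0.3 of wild type. Only 6 of the 10 listed family genes had a named probe set. These 6 were all in the authors' table, selected for change, which inflates the count further.

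Among 14 other members for transcription factors, DREB1A (AT4G25480, also CBF3), which switches on cold-response genes, differed most. It had 7.61, 7.90 and 7.82 in HCT-RNAi and 5.07, 5.14 and 5.36 in ccr-1, against 5.27, 5.34 and 5.03 in wild type, a difference of 2.56 ± 0.10 in HCT-RNAi (5.91-fold). MYB48 had 10.89, 10.88 and 10.90 in HCT-RNAi and 8.71, 8.89 and 8.58 in ccr-1, against 8.73, 8.72 and 8.89 in wild type. NAC069 had 7.52, 7.55 and 7.45 in HCT-RNAi and 5.58, 5.41 and 5.54 in ccr-1, against 5.40, 5.41 and 5.50 in wild type. HCT-RNAi exceeded wild type by 2.11 ± 0.08 for MYB48 and 2.07 ± 0.06 for NAC069, and ccr-1 overlapped wild type for both.

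The rest of these transcription factors differed by 1.03 to 1.47 in HCT-RNAi. ABF1, a bZIP factor of abscisic acid responses, was 1.47 ± 0.07 above wild type. The RWP-RK gene AT2G43500 and WRKY32 were 1.26 ± 0.06 and 1.23 ± 0.06 above it, and ARF11, of the auxin response factors, 1.2 ± 0.08. TGA3 and TGA7, bZIP factors linked to salicylic acid responses, were 1.13 ± 0.07 and 1.07 ± 0.06 above wild type in HCT-RNAi but -0.13 and -0.27 from it in ccr-1. The bHLH genes bHLH11 and bHLH34 were 1.11 ± 0.07 and 1.03 ± 0.07 above wild type, SNZ, a repressor of flowering, 1.06 ± 0.10, and DEL2, an atypical E2F factor, 1.04 ± 0.07.

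APL, the remaining factor, specifies phloem identity and was also 1 of the 3 phloem markers measured. It had 8.44, 8.45 and 8.51 in HCT-RNAi and 7.22, 7.25 and 7.12 in ccr-1, against 7.18, 7.23 and 7.39 in wild type, a difference of 1.2 ± 0.07 in HCT-RNAi. The other phloem markers did not share this pattern: SWEET11, a sucrose exporter, rose by 1.14 in HCT-RNAi and 1.32 in ccr-1, and SEOR1, a sieve element protein, fell by 0.56 in HCT-RNAi and by 1.05 in ccr-1. The 3 together summed to 4743 to 5052 on HCT-RNAi arrays and 4882 to 5339 on ccr-1 arrays, against 2751 to 2849 on wild-type arrays.

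In the list for abscisic acid, drought and cold, 10 of 11 genes were higher and 1 was lower in HCT-RNAi by limma's adjusted p under 0.05, beside 32.9% and 27.7% of all probe sets. In ccr-1 7 were higher, 2 lower and 2 did not pass, beside 24.7% and 30.1%. Of the 11, 10 were in the authors' table, selected for change, so these counts are inflated. Of this list, DREB1A alone met the rule, and the list's median was 2.54 in HCT-RNAi and 1.50 in ccr-1. COR15A, a chloroplast cold-response protein, rose by 3.54 in HCT-RNAi and 2.03 in ccr-1, and HAI2, a protein phosphatase, by 3.15 and 2.11. COR47 fell by 1.77 in HCT-RNAi and by 0.22 in ccr-1. RD29A rose by 0.93 in HCT-RNAi and fell by 0.79 in ccr-1.

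Chloroplast upkeep supplied 14 members, all between 1.02 and 1.34 above wild type in HCT-RNAi. FTSH12, a membrane protein of the FtsH family, had 8.79, 8.65 and 8.76 in HCT-RNAi and 7.60, 7.63 and 7.76 in ccr-1, against 7.39, 7.40 and 7.39 in wild type, so that the 3 groups were separate. PTAC17, found with the plastid chromosome, had 8.98, 8.91 and 9.04 in HCT-RNAi and 7.77, 7.76 and 7.72 in ccr-1, against 7.78, 7.68 and 7.54 in wild type. Protein targeting and folding was represented by CPSRP54 (1.18 ± 0.06), SECA2 (1.08 ± 0.08), Cpn60beta4 (1.04 ± 0.10) and CR88 (1.04 ± 0.06). DGD1, which makes galactolipids of the thylakoid, was 1.1 ± 0.06 above wild type, THIC, of thiamine synthesis, 1.07 ± 0.06, and PCB2, a reductase of chlorophyll synthesis, 1.02 ± 0.06. Plastid DNA and RNA genes were GYRA (1.11 ± 0.08), WHY3 (1.04 ± 0.09) and the splicing factor CAF1 (1.03 ± 0.09). NOA1 and MRL7 were 1.22 ± 0.08 and 1.15 ± 0.07 above wild type. The leaf mesophyll markers did not move this way: all 3 fell in HCT-RNAi, with a median difference of -0.40.

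Genes of small RNAs, DNA methylation and chromatin gave 6 members. CHR42, a chromatin remodelling protein of the SNF2 type, had 7.18, 7.37 and 7.31 in HCT-RNAi and 5.69, 5.71 and 5.70 in ccr-1, against 5.77, 5.58 and 5.56 in wild type. DCL3, which cuts double-stranded RNA into the small RNAs that direct DNA methylation, had 7.09, 6.97 and 7.03 in HCT-RNAi and 6.06, 6.11 and 6.23 in ccr-1, against 5.82, 5.90 and 6.09 in wild type. HEN1, which methylates small RNAs, had 7.19, 7.25 and 7.29 in HCT-RNAi and 6.13, 6.38 and 6.31 in ccr-1, against 6.26, 6.27 and 6.12 in wild type. HCT-RNAi was above wild type by 1.65 ± 0.07 for CHR42, 1.09 ± 0.08 for DCL3 and 1.03 ± 0.07 for HEN1.

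CHR1 (also DDM1), a remodelling protein that maintains DNA methylation, was 1.26 ± 0.08 above wild type, AT2G19930, of the RNA-dependent RNA polymerase family, 1.39 ± 0.10, and HMGB6, an HMG-box protein, 1.03 ± 0.09. Of 4 other named genes of these pathways, DCL1 and DCL2 differed from wild type by 0.61 and 0.82 in HCT-RNAi but by -0.85 and -0.81 in ccr-1. AGO4 was 1.22 above wild type in both lines, and RDR2 differed by 1.13 in HCT-RNAi and 0.32 in ccr-1, just past the limit of the rule. HCT-RNAi is the only one of the groups that carries an RNAi construct, so its presence and reduced HCT cannot be told apart in these values.

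DNA repair and cell division held 8 members, between 1.05 and 1.33 above wild type in HCT-RNAi. LIG6, a DNA ligase, had 8.14, 8.11 and 8.32 in HCT-RNAi and 6.83, 7.00 and 7.00 in ccr-1, against 6.78, 6.95 and 6.85 in wild type. DDB2, which recognises ultraviolet damage, had 6.85, 6.87 and 6.91 in HCT-RNAi and 5.68, 5.69 and 5.55 in ccr-1, against 5.67, 5.56 and 5.69 in wild type, so that the means of ccr-1 and wild type coincided at 5.64. The mismatch repair gene PMS1 was 1.18 ± 0.08 above wild type, PARP2, a poly(ADP-ribose) polymerase, 1.14 ± 0.11, and SUV2, of the DNA damage response, 1.05 ± 0.07. Division was represented by the spindle checkpoint gene BUB3.1 (1.21 ± 0.06), the Aurora kinase AUR3 (1.1 ± 0.08) and ATMND1, of meiotic recombination (1.07 ± 0.09).

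A mixed group of phenylpropanoid, conjugation and other genes gave 11 members, with a median of 1.53. UGT72E2, which adds glucose to monolignols, had 6.94, 7.18 and 7.11 in HCT-RNAi and 5.64, 5.42 and 5.40 in ccr-1, against 5.44, 5.52 and 5.47 in wild type. UGT78D2, which adds glucose to flavonols and anthocyanidins, had 10.48, 10.45 and 10.50 in HCT-RNAi and 9.05, 9.02 and 9.08 in ccr-1, against 8.92, 8.85 and 8.94 in wild type. The differences in HCT-RNAi were 1.60 ± 0.08 for UGT72E2 and 1.57 ± 0.05 for UGT78D2. UGT78D2 was the only member on the flavonoid list, where 14 of 14 genes were higher in both lines by limma's adjusted p under 0.05, beside 32.9% of all probe sets in HCT-RNAi and 24.7% in ccr-1. All 14 were in the authors' table, selected for change, so these counts are inflated, and the rule fixed UGT78D2 as higher in HCT-RNAi. The list's median difference was 3.51 for HCT-RNAi and 1.59 for ccr-1. The 2 largest rises of that list in HCT-RNAi were those of DFR, the dihydroflavonol reductase of anthocyanin synthesis (5.67, and 3.40 in ccr-1), and of the regulator PAP1 (5.03, and 2.82 in ccr-1).

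AT1G20490, of the AMP-dependent synthetase and ligase family, had 6.92, 7.13 and 7.17 in HCT-RNAi and 5.29, 5.20 and 5.41 in ccr-1, against 5.04, 5.10 and 5.08 in wild type, a difference of 2.00 ± 0.07 in HCT-RNAi. IGMT5, a methyltransferase of indole glucosinolates, was called absent on all wild-type arrays and lay at least 3.87-fold above wild type in HCT-RNAi. UGT73C1 was called absent on all ccr-1 and wild-type arrays and present on 2 of 3 HCT-RNAi arrays. Its mean over all 3 HCT-RNAi arrays, 1 of them called absent, was 2.89-fold above wild type. EDS16, the isochorismate synthase of salicylic acid synthesis, was 1.31 ± 0.10 above wild type, CAD6, of the cinnamyl alcohol dehydrogenase family, 1.22 ± 0.05, and AT1G58170, of the dirigent family, 1.07 ± 0.07. GSTF5, a glutathione transferase, was 1.54 ± 0.08 above wild type, ABCC2, a vacuolar conjugate transporter, 1.21 ± 0.07, and UGT76C2, which adds glucose to cytokinins, 1.09 ± 0.09. GSTF5 was called absent on 2 of 3 arrays in both ccr-1 and wild type, at low mean signals of 3.71 and 3.66.

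Transport and nutrient genes gave 9 members. BOR5, of the borate exporter family, had 6.63, 6.81 and 6.70 in HCT-RNAi and 4.80, 5.01 and 4.93 in ccr-1, against 4.91, 4.81 and 4.89 in wild type, a difference of 1.84 ± 0.07 in HCT-RNAi. ALMT9, a vacuolar anion channel, was 1.36 ± 0.09 above wild type. The amino acid exporters SIAR1 and UMAMIT30 were 1.27 ± 0.06 and 1.19 ± 0.06 above it, and GDU1, which affects amino acid export, 1.17 ± 0.07. PHO2, which limits phosphate uptake, was 1.19 ± 0.07 above wild type, MTPB1, of the metal tolerance family, 1.1 ± 0.08, and UPS2, of the ureide permeases, 1.00 ± 0.10. NAS4, which makes the iron chelator nicotianamine, was 1.05 ± 0.07 above wild type and was the only member on the iron list. By limma's adjusted p under 0.05, 4 of its 4 genes were higher in HCT-RNAi and 3 in ccr-1, with 1 not passing, beside 32.9% and 24.7% of all probe sets. Of these 4, 3 were in the authors' table, selected for change, and the rule fixed NAS4 as higher in HCT-RNAi, so the counts are inflated. PYE and FER1 rose most on the iron list in HCT-RNAi, by 1.61 and 1.58, and by 1.22 and 0.77 in ccr-1.

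The other 121 members comprised 112 named genes of more scattered roles and the 9 unnamed probe sets. By words of the annotation, 123 of the 206 named members (59.7%) matched no class. Among the rest, kinases and receptors were the largest class, at 15 of the 206 (7.28%). The same class held 49 of the 1089 named probe sets at least 1 higher in HCT-RNAi (4.5%). CRK28, a cysteine-rich receptor-like kinase, had 7.41, 7.63 and 7.83 in HCT-RNAi and 5.65, 5.88 and 5.36 in ccr-1, against 5.94, 5.82 and 5.84 in wild type. NP3, of the mitogen-activated kinase cascades, was 1.56 ± 0.07 above wild type, and XIP1, a receptor-like kinase active in vascular tissue, 1.24 ± 0.07. CYP89A2, a cytochrome P450, was 1.32 ± 0.05 above wild type, and AAO3, of abscisic acid synthesis, 1.2 ± 0.10.

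Cell wall and glycosidase genes included AT1G57590, of the pectin acetylesterase family, with 11.30, 11.17 and 11.20 in HCT-RNAi and 9.57, 9.47 and 9.57 in ccr-1, against 9.40, 9.41 and 9.39 in wild type. The beta-glucosidase genes BGLU44 and BGLU9 were 1.88 ± 0.06 and 1.86 ± 0.06 above wild type. CYP722A1, a cytochrome P450, had 8.10, 8.06 and 8.09 in HCT-RNAi and 5.60, 5.90 and 5.92 in ccr-1, against 6.19, 5.98 and 6.02 in wild type, with ccr-1 below wild type on every array. In the protein turnover class, AT5G25560, a RING-type gene, and UBC37 were 1.29 ± 0.06 and 1.26 ± 0.17 above wild type. The RNA and translation class was led by AT3G09160 (1.28 ± 0.09) and AT4G38020 (1.27 ± 0.07), an RNA-binding protein and an RNA methyltransferase by annotation, and the jumonji gene AT1G62310 was 1.38 ± 0.09 above wild type.

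The members with the strongest signal were led by AT1G13930, linked to salt tolerance, at 13.36, 13.32 and 13.32 in HCT-RNAi and 12.42, 12.46 and 12.39 in ccr-1, against 12.30, 12.23 and 12.20 in wild type. GBSS1, the subtilase ATSBT5.2, AT1G67360, of the rubber elongation factor family, DPE2, SIAR1, the nucleolin NUC-L1, PHS2, AT1G57590 and AT2G29670 completed the 10 highest. ATSBT5.2 was 1.66 ± 0.08 above wild type in HCT-RNAi, AT1G67360 1.72 ± 0.06, NUC-L1 1.19 ± 0.07 and AT2G29670 1.77 ± 0.06. Across all members the mean signal in HCT-RNAi ran from 4.74 to 13.33.

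By the authors' detection calls, 170 members were present on all 9 arrays. Another 7 were present on all HCT-RNAi arrays and absent on the other 6, so that their folds are lower bounds. The largest of these was a shared probe set that the authors' deposited table describes as a glycine-rich protein family, with 7.26, 7.68 and 7.49 in HCT-RNAi and 4.41, 4.49 and 4.41 in ccr-1, against 4.35, 4.38 and 4.30 in wild type. It was at least 8.78-fold above wild type and at least 8.21-fold above ccr-1. AT3G24750, of unknown function, had 6.37, 6.12 and 6.20 in HCT-RNAi and 3.69, 3.84 and 3.66 in ccr-1, against 3.97, 3.78 and 3.69 in wild type, and was at least 5.34-fold above wild type. The bounds over wild type for the other 5 were 2.28 for RLP6, 2.24 for AT1G11300, 2.09 for SNZ, 2.03 for AT5G08600 and 2.00 for PYK10. Calls were given only for 3785 probe sets, and the shares of these with the same patterns of calls were not counted. The rule asks for more signal in HCT-RNAi, and so favours calls of present there and absent elsewhere. The counts by call are therefore descriptions only.

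By the gene order of RefSeq's TAIR10.1 assembly, 2 pairs of members were neighbours. The order held 204 member genes, and the 14754 named genes formed 7420 neighbouring pairs. Whether 2 pairs are more than a random draw would give was not tested. SEX4 lies next to AT3G52170, a DNA-binding protein by annotation, which was 1.54 ± 0.06 above wild type in HCT-RNAi. ATSBT5.2 lies next to AT1G20150, another subtilase gene, which was 1.24 ± 0.09 above it.

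Many members lay close to the limits of the rule. Just inside the limit of 1 were UPS2 (1.001), PYK10 (1.002) and EMB1270 (1.003), and just outside were LHW (0.998) and 2 unnamed probe sets (0.999 and 0.998). At the upper limit for ccr-1, AT2G39690 (0.297), AT2G03310 (0.297) and AT3G10120 (0.294) were inside, and ROPGEF14 (0.302), NUB1 (0.305) and MAP1C (0.306) outside. At the lower limit, PIP5K5 (-0.298), SUV2 (-0.295) and an unnamed probe set (-0.290) were inside, and TINY2 (-0.317), RLP32 (-0.338) and another unnamed probe set (-0.359) outside.

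Of 17 pathway lists, 12 had no member among their named genes: jasmonate, sulfur limitation, aliphatic glucosinolates, copper, phosphate starvation, nitrate and ammonium assimilation, glutathione transferases, heat shock, wax and cutin, monolignol synthesis, cytokinin response and senescence. Of 7 marker lists, 6 had none: floral organs, seed storage, pollen, leaf mesophyll, xylem and fibres, and epidermis. These lists had 3 to 14 named genes each and members were 0.945% of all probe sets, so a list without a member is no result about it.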

How the data were processed

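The authors deposited 1 linear intensity for each probe set on each array. The submitters' processing notes name RMA and MAS5, with no versions or settings. RMA makes array distributions alike, so a change in total RNA cannot be seen. The authors' second deposited table gave detection calls for 3785 probe sets (the other values used) and loci. log2 was taken here, which the plan had assumed already done. The 64 control probe sets were left out. limma 3.58.1 in R 4.3.3 fitted all 9 arrays with a mean per group (lmFit, contrasts.fit, eBayes), with Benjamini-Hochberg adjustment over 22746 probe sets. The code was tested on simulated data. Standard errors are from this fit, and the number of arrays limits the precision.

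Names came from the platform annotation, then the authors' loci, with RefSeq symbols (14884 probe sets). The rule for naming genes took the 20 largest members, the 4 largest per annotation class, list members, the 10 strongest signals, neighbours, those next to a limit, and the 2 largest changes each way in lists that hold a member. Genes outside it, those of the role groups and the starch, NF-YA and small RNA families, were chosen after their values were seen. Members and lists were chosen with earlier results of these data known. Most list genes are named through the authors' table, selected for change. Promoter motifs were not analysed here.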

Additional observations from a re-analysis of the deposited data

How the results depend on the processing

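No paired analysis was possible because the replicate numbers run from 1 to 9 and no number is shared between groups. The number of members, 215, moved most with the limits themselves: it was 433 with HCT-RNAi at least 0.8 above wild type and 109 with at least 1.2. It was 278 and 152 with ccr-1 within 0.4 and 0.2, 219 with log2 of the mean linear intensity, 207 without shared probe sets and 162 with a mean log2 intensity over 6. Leaving out 1 array at a time gave 207 to 225 members, 189 to 210 of them shared with the 215. Centring each array on its median moved the difference of HCT-RNAi from wild type by -0.10 for all probe sets, to a median of -0.11, and left 151 members, 139 of them shared. The lowest difference among the 215 was then 0.90 and their median 1.1. The same centring moved the share of higher calls in HCT-RNAi against wild type to 39.5%, from 54.2% without it. The counts of probe sets called stayed within 1.5 times under every alternative run. The pooled count of list genes called was taken only without 1 array at a time and under median centring, and stayed within 1.5 times there. For single lists and named genes, 2281 results stayed the same, 55 moved, 5 lost their call and none reversed. A moved result passed 1.5 times for a list, or the larger SD of HCT-RNAi and wild type for a member. BAM3 lost its call under median centring, and PRR7 lost its call there and without replicate 1, 7 or 9.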
